A study of Mus musculus with 6 samples.

Results

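Eukaryotic translation initiation factors were examined in RNA sequencing of the mouse nucleus accumbens, the ventral striatal region that receives dense dopamine input. The genes were all symbols that begin with Eif and a number from 1 to 6, followed by lower-case letters or digits alone, with 1 row per symbol and a completed test by the authors. Of 55 such symbols, 53 met this rule, among 22974 single gene symbols with a completed test. The symbols left out were Eif2c5, listed at 0 in both groups, and Eif4e1b, at 0.0222 in saline and 0 after cocaine, which the authors did not test. Not all 53 encode initiation factors in the strict sense: Eif2c1 to Eif2c4 are older symbols of the Argonaute genes, 4 genes encode kinases of eIF2, and 3 encode proteins that bind and restrain the cap-binding factor eIF4E.

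Both groups consisted of male C57BL/6 mice aged 11 weeks that received repeated intraperitoneal injections for 1 week, of saline in the first group and of cocaine at 20 mg/kg in the second, with tissue taken after a withdrawal of 24 h. There were 3 pools per group, a pool being accumbens tissue from both hemispheres of 5 mice, or 15 mice per group. Cage mates shared their treatment, so cage and treatment cannot be told apart. Each gene had 1 value per group, in FPKM (fragment counts divided by the length of the transcript and by the size of the library), and none per pool, so no spread between pools could be computed.

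Protein synthesis starts when eIF2 delivers the initiator transfer RNA to the small ribosomal subunit, where eIF1, eIF1A, eIF3 and eIF5 help to locate the start codon. The eIF4F complex of cap-binding eIF4E, scaffold eIF4G and helicase eIF4A brings in the messenger RNA, and eIF4E-binding proteins compete with eIF4G for eIF4E. In neurons, phosphorylation of eIF2 and of eIF4E-binding proteins sets how much protein is made at rest and after synaptic activity, and both routes are studied in long-lasting synaptic plasticity and drug memory.

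The depth of the libraries is unknown. The ± beside each log2 ratio is a standard error back-calculated from the statistic of the authors' test. It is not recorded whether variation from pool to pool entered that test. All 10 striatal projection neuron markers were above 0, and their summed level was 3474 FPKM in saline and 3895 FPKM after cocaine, with 2 markers called higher and 1 lower. The largest of them was Penk, at 1737 and 1943 FPKM (log2 0.16 ± 0.59, not called). Sums over 6 astrocyte markers (1425 and 1405 FPKM), 6 oligodendrocyte markers (2207 and 2098) and 6 microglial markers (97.8 and 96.8) differed little, though 2 oligodendrocyte markers were called lower. Most of the astrocyte sum was Aldoc (1212 and 1199 FPKM). Of the other astrocyte markers, Slc1a3 was higher and Aldh1l1, Aqp4, Gfap and Gja1 lower, all uncalled. Of the microglial markers, Aif1 and C1qa were higher and Csf1r, Cx3cr1, Itgam and P2ry12 lower, all uncalled. In sum, 6 choroid plexus markers went from 101 to 16.9 FPKM (1 called, Ttr, lower), 4 cortical projection neuron markers from 15.9 to 24.99 FPKM (1 called, Slc17a7, higher) and 5 erythrocyte markers from 257 to 295 FPKM (1 called lower). Most of the choroid plexus sum in saline was Ttr, which went from 93.4 to 9.46 FPKM. Of the other choroid plexus markers, Folr1, Kl and Otx2 were lower and Clic6 and Kcne2 higher, all uncalled. Most of the cortical sum was Slc17a7, at 13.0 FPKM in saline and 21.4 FPKM after cocaine. Sums over 5 endothelial markers were 30.9 and 31.7 FPKM (1 called lower) and over 3 pan-neuronal markers 911 and 918 FPKM. None of the markers in these lists was at 0 in both groups. The part of these marker differences in the results below was not tested. In bulk tissue, fewer cells of a type and less RNA per cell cannot be told apart.

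The question was which of these transcripts differ between the groups after a day without the drug. Some genes of the eIF1, eIF2 and eIF3 groups were higher after cocaine, and some of the eIF4G, eIF4E-binding and Argonaute groups were lower, while most genes were not called. Called higher were Eif1a, Eif1b, the eIF2 genes Eif2s2 and Eif2s3y and the eIF3 genes Eif3e, Eif3j and Eif3m, by 1.37-fold to 1.73-fold. Called lower were the scaffold Eif4g1, the eIF4E-binding genes Eif4ebp2 and Eif4enif1 and the Argonautes Eif2c1 and Eif2c2, by 1.19-fold to 1.49-fold. Calls were made at an authors' q under 0.05.

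In all, 12 of the 53 genes were called (22.6%), 7 higher and 5 lower. Of all 23479 rows with a completed test 11.9% were called, 6.1% higher and 5.76% lower. At a q under 0.01, 8 of the 53 genes were called, against 1917 of the 23479 rows (8.16%). Among the 14193 genes with a single symbol and a mean of at least 1 FPKM, a range that holds 52 of the 53 genes, the share was 14.6%, with 7.46% higher and 7.18% lower. The median log2 ratio was 0.13 over the 53 genes and 0.04 over those 14193. Without regard to calls, 35 of the 53 were higher after cocaine and 18 lower. Of the 14193 genes, 7825 were higher and 6368 lower. The genes called higher were 2 of 5 in the group of eIF1 and eIF1A, 2 of 4 eIF2 subunits and 3 of 13 eIF3 subunits. The genes called lower were 1 of 2 eIF4G scaffolds, 2 of 3 eIF4E-binding regulators and 2 of 4 Argonautes. The other 22 genes, in 7 role groups, had no call at a q under 0.05, and 5 of them had an unadjusted p under 0.05 in the authors' test (Eif2ak3, Eif2b2, Eif2d, Eif4e2 and Eif5a2).

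**Figure D1:**
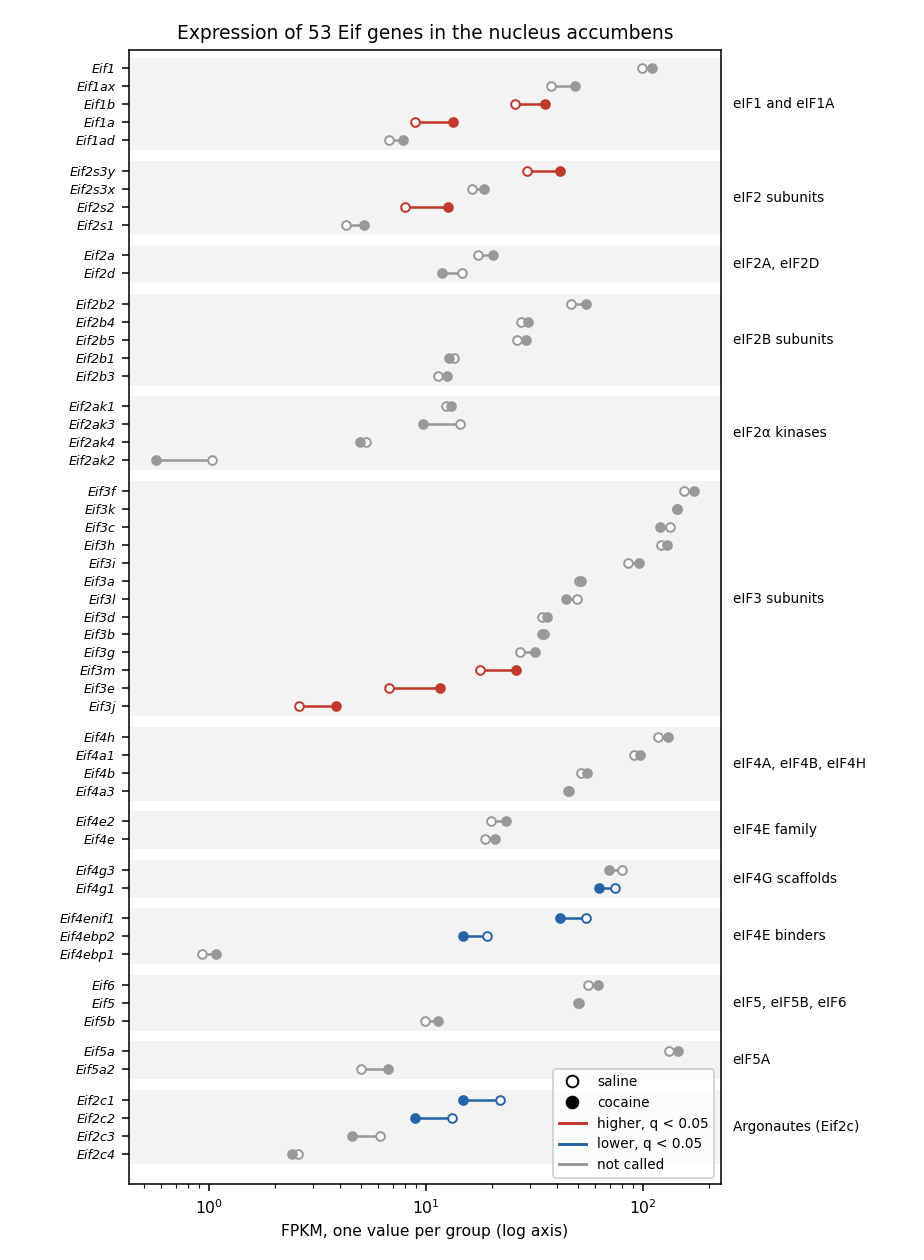
FPKM of the 53 Eif genes, grouped by role and ordered by level, with 1 value per group: open circles are saline, filled circles cocaine, on a log axis. Red and blue mark the 7 genes called higher and the 5 called lower at an authors' q under 0.05; levels run from under 1 FPKM for Eif2ak2 after cocaine to 171 FPKM for Eif3f.

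The factors eIF1 and eIF1A hold the small subunit in its open, scanning form, and each has a pair of genes in the mouse. Eif1a had 8.91 FPKM in saline and 13.3 FPKM after cocaine, a log2 ratio of 0.58 ± 0.15 (q = 0.00139 in the authors' deposited table). It lies alone in its locus at chromosome 18, 46757358 to 46769879, in build mm9, which applies to all locus positions here. Its X-linked paralogue Eif1ax was 4.21 times as abundant in saline and 3.64 times after cocaine. Eif1ax went from 37.5 to 48.5 FPKM, 0.37 ± 0.14 on the log2 scale, and missed the threshold (q = 0.0534 in the authors' deposited table). The ratios of these paralogues differed by 0.21 (95% interval -0.19 to 0.60, from the implied errors).

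Eif1b, in a locus of its own at chromosome 9, 120401724 to 120404445, had 25.8 FPKM in saline and 35.4 FPKM after cocaine. Its log2 ratio was 0.46 ± 0.15 (q = 0.0214 in the authors' deposited table). The more abundant Eif1 went from 98.8 to 109 FPKM and was not called (0.15 ± 0.11, q = 0.516 in the authors' deposited table). The log2 ratio of Eif1b exceeded that of Eif1 by 0.31, with an interval of -0.05 to 0.68 that includes 0. Eif1ad, a protein with an eIF1A-like domain, had 6.70 and 7.78 FPKM and was not called. All 5 genes of the group were higher after cocaine, and their summed level went from 178 to 214 FPKM.

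The trimer eIF2 carries the initiator transfer RNA, and its alpha subunit is the target of the stress kinases. All 4 subunit genes were higher after cocaine and 2 were called. The beta subunit gene Eif2s2 had 7.99 FPKM in saline and 12.6 FPKM after cocaine, a log2 ratio of 0.66 ± 0.16 (q = 0.000697 in the authors' deposited table). Its printed locus (chromosome 2, 154616832 to 154876748) also held a row shared by Raly, which encodes an RNA-binding protein, and the gene a. That shared row was called higher as well (0.35 on the log2 scale). Gm14226, in the same locus, was under 0.04 FPKM in both groups (0.036 and 0.035) and not called. The alpha subunit gene Eif2s1 was the least abundant, at 4.28 and 5.18 FPKM, and was not called (0.28 ± 0.18).

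The gamma subunit is encoded on both sex chromosomes. The Y-linked Eif2s3y had 29.3 FPKM in saline and 41.4 FPKM after cocaine, a log2 ratio of 0.50 ± 0.13 (q = 0.00116 in the authors' deposited table), at chromosome Y, 346986 to 365290. The X-linked Eif2s3x had 16.2 and 18.4 FPKM and was not called (0.19 ± 0.12). The Y-linked copy was thus the more abundant in these male mice, at 1.81 times the X-linked level in saline and 2.24 times after cocaine. The log2 ratios of the copies differed by 0.31 (95% interval -0.03 to 0.66). How reads were assigned between these similar copies is not given in the sources used here.

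Recycling of eIF2 depends on its exchange factor eIF2B, and 0 of the 5 eIF2B genes were called by the authors' test at q under 0.05 (1 had an unadjusted p under 0.05, Eif2b2). Eif2b2 was the most abundant and had the highest log2 ratio of the 5, at 46.6 and 54.7 FPKM (log2 0.23 ± 0.09, with q = 0.0645 in the authors' deposited table). Eif2b1 had the lowest, at 13.4 and 12.7 FPKM (-0.08 ± 0.15). The other initiation proteins Eif2a (17.3 and 20.3 FPKM) and Eif2d (14.6 and 11.8 FPKM), which can deliver transfer RNA without eIF2, differed in direction and were not called.

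The 4 kinases that phosphorylate the alpha subunit of eIF2 were not called either (1 had an unadjusted p under 0.05, Eif2ak3). Eif2ak3, the kinase PERK of the endoplasmic reticulum, had 14.2 FPKM in saline and 9.65 FPKM after cocaine, -0.56 ± 0.23 on the log2 scale (q = 0.0999 in the authors' deposited table). Eif2ak2, the double-stranded RNA-dependent kinase PKR, was near 1 FPKM in saline and at 0.570 FPKM after cocaine, and its ratio had the largest error of all 53 genes (-0.86 ± 0.56). Eif2ak1, the heme-regulated kinase, had 12.4 and 13.0 FPKM. Eif2ak4, the amino acid sensor GCN2, had 5.26 and 4.93 FPKM. PERK thus had a ratio as low as that of the called Argonautes, but with an implied error more than 2 times larger.

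**Figure D2:**
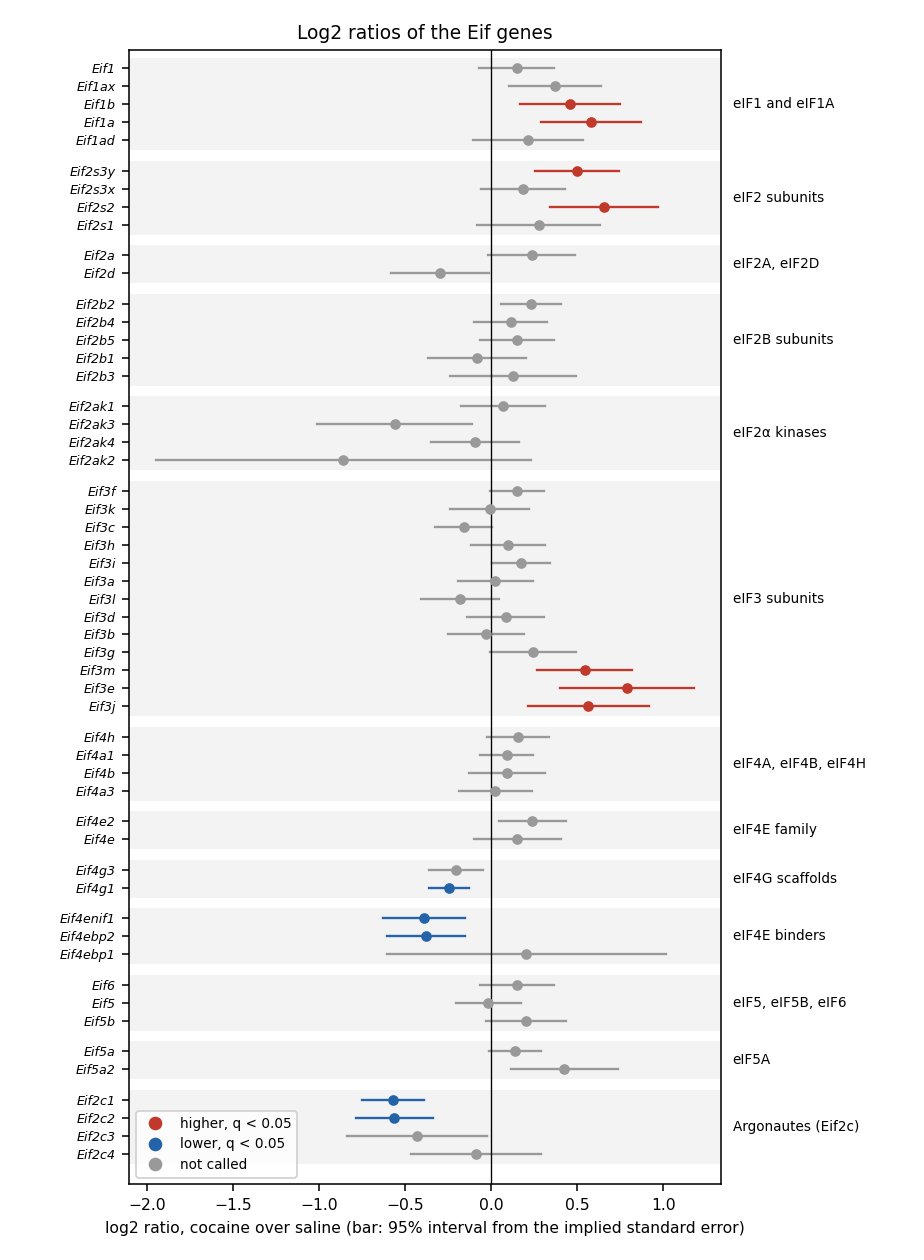
Log2 ratio of cocaine over saline for each Eif gene, with bars that span the 95% interval from the implied standard error, in the same order as the plot of levels. Called genes to the right of 0 (red) lie in the eIF1, eIF2 and eIF3 groups, and those to the left (blue) in the eIF4G, eIF4E-binding and Argonaute groups; Eif2ak2 and Eif4ebp1, the least abundant genes, have the widest bars.

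The largest factor, eIF3, bridges the small subunit and eIF4F, and 13 of its subunit genes were measured. Of these 3 were called, all higher. Eif3e had 6.71 FPKM in saline and 11.6 FPKM after cocaine, the highest log2 ratio of the 53 genes at 0.79 ± 0.20 (q = 0.00129 in the authors' deposited table), and lies alone at chromosome 15, 43081586 to 43114282. Eif3m had 17.7 and 25.9 FPKM, 0.54 ± 0.14 on the log2 scale (q = 0.00183 in the authors' deposited table), in a locus at chromosome 2, 104707962 to 104858061, with the uncalled Ccdc73 and Gm13887, the latter listed at 0. The loosely bound subunit gene Eif3j had 2.60 and 3.85 FPKM, 0.57 ± 0.18 on the log2 scale (q = 0.0182 in the authors' deposited table). Its locus (chromosome 2, 121854282 to 121944122) also held Spg11, which was lower after cocaine and not called (-0.34).

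A processed copy of the Eif3e transcript, Eif3s6-ps1, is outside the rule and was named after its values were seen. It rose from 6.48 FPKM in saline to 12.7 FPKM after cocaine (0.97 ± 0.28, q = 0.00690 in the authors' deposited table). Reads may be shared between it and Eif3e, so the value of Eif3e is uncertain to that extent.

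The 3 called subunit genes were the 3 least abundant of the 13, ranked by the saline value, by the cocaine value or by their mean. The next in order, Eif3g, had 26.9 and 31.8 FPKM and was not called (0.24 ± 0.13). The highest subunit value was 59.2 times the lowest in saline and 44.4 times after cocaine. Rank correlation of log2 ratio with mean level was -0.57 over the 13 genes, which share the libraries and whose ratios are made from the same values as the levels. It was -0.11 over the 53 genes and 0.02 over the 14193 genes of at least 1 FPKM. The 3 called genes were also lowest of the 13 in G and C content of the longest protein-coding transcript. Eif3e had 40.3%, Eif3j 42.5% and Eif3m 44.4%, with Eif3a next at 44.5%. None of the other 10 subunit genes was called, and 1 of them, Eif3i, had an unadjusted p under 0.05. Eif3i had 85.0 and 95.8 FPKM (0.17 ± 0.09, with q = 0.209 in the authors' deposited table). Eif3f, the most abundant of the 53, had 154 and 171 FPKM (0.15 ± 0.08), and Eif3k had 144 and 143 FPKM (-0.01 ± 0.12). Eif3l (-0.18 ± 0.12) and Eif3c (-0.16 ± 0.08) had the lowest log2 ratios, both uncalled. The sum over the 13 genes was 859 FPKM in saline and 896 FPKM after cocaine.

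**Figure D3:**
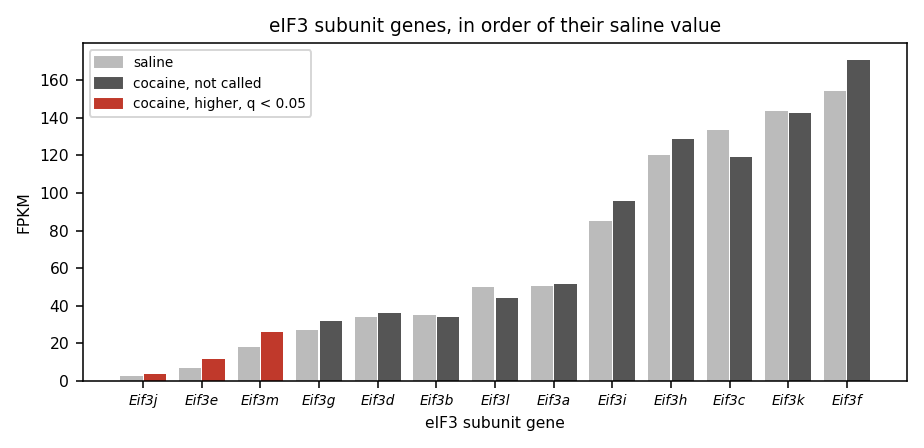
FPKM of the 13 eIF3 subunit genes in saline (light bars) and after cocaine (dark or red bars), 1 value per group, ordered by the saline value. The genes called higher (red) are the 3 at the left, Eif3j, Eif3e and Eif3m, with saline values of 2.60, 6.71 and 17.7 FPKM.

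The scaffold eIF4G joins the cap-binding factor to eIF4A, eIF3 and the poly(A)-binding protein. Eif4g1 fell from 74.2 FPKM in saline to 62.6 FPKM after cocaine, a log2 ratio of -0.25 ± 0.06 (q = 0.000847 in the authors' deposited table), at chromosome 16, 20668386 to 20692957. That locus also held the small nucleolar RNA Snord66, listed at 0 and 0.766 FPKM and called. Eif4g3, which encodes a second scaffold, had 80.1 and 69.5 FPKM and a similar ratio of -0.21 ± 0.08 that missed the threshold (q = 0.0769 in the authors' deposited table). The ratios of these scaffolds differed by -0.04 (95% interval -0.24 to 0.16). Eif4g2, whose product lacks the eIF4E-binding part, shares its row with a small nucleolar RNA and is outside the rule. That row was more abundant, at 291 and 300.1 FPKM, and not called (0.04 ± 0.06).

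Of 3 measured genes for proteins that bind eIF4E and restrain it, 2 were called, both lower. Eif4ebp2, the main eIF4E-binding protein of the brain, had 19.1 FPKM in saline and 14.7 FPKM after cocaine, -0.38 ± 0.12 on the log2 scale (q = 0.0134 in the authors' deposited table), alone at chromosome 10, 60895245 to 60915417. Eif4enif1, which encodes the eIF4E transporter of processing bodies, had 54.3 and 41.5 FPKM, -0.39 ± 0.12 on the log2 scale (q = 0.0154 in the authors' deposited table). Its locus at chromosome 11, 3031853 to 3166418, held 6 rows in all, of which the other 5 were not called. Eif4ebp1 had 0.929 and 1.07 FPKM, and its interval of -0.61 to 1.01 leaves its direction undetermined. Eif4ebp3 was listed only in a row with Ankhd1, which was not called (25.02 and 23.1 FPKM).

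The cap-binding and helicase genes within the symbol rule were not called (1 of the 6 had an unadjusted p under 0.05, Eif4e2). The row of the helicase gene Eif4a2, outside the rule, was called higher and is given below. Eif4e had 18.7 and 20.8 FPKM (0.15 ± 0.13) and its repressive relative Eif4e2 had 19.8 and 23.4 FPKM (log2 0.24 ± 0.10, with q = 0.108 in the authors' deposited table). The helicase gene Eif4a1 had 90.5 and 96.2 FPKM (0.09 ± 0.08), and Eif4a3, which serves the exon junction complex, had 44.8 and 45.6 FPKM (0.02 ± 0.11). The helicase cofactors Eif4b (51.7 and 55.0 FPKM) and Eif4h (117 and 130.3 FPKM) were similar to them, both uncalled. Eif4a2, the neuronal helicase paralogue, shares its row with a small nucleolar RNA and was named after its values were seen. That row rose from 281 FPKM in saline to 388 FPKM after cocaine, 0.47 ± 0.06 on the log2 scale (q = 1.92e-12 in the authors' deposited table). Its log2 ratio exceeded that of Eif4a1 by 0.38 (95% interval 0.18 to 0.57), and it was 3.10 times as abundant as Eif4a1 in saline and 4.03 times after cocaine.

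Subunit joining closes initiation. Eif5, the activating protein of the eIF2 GTPase, had 50.5 and 49.9 FPKM (-0.02 ± 0.10). The joining GTPase gene Eif5b had 9.86 and 11.4 FPKM (0.20 ± 0.12), and Eif6, which keeps the large subunit from binding early, had 55.9 and 62.1 FPKM (0.15 ± 0.11). The factor eIF5A, the one protein family with the modified amino acid hypusine, helps ribosomes past difficult stretches. Its genes differed about 26-fold in saline level, with Eif5a at 132 and 145 FPKM (0.14 ± 0.08) and Eif5a2 at 4.99 and 6.69 FPKM (log2 0.42 ± 0.16, with q = 0.0603 in the authors' deposited table). These 5 genes were not called.

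The Argonautes, which load small RNAs and repress their target messengers, all had lower values after cocaine, though the direction of Eif2c4 is undetermined. Eif2c1 fell from 21.9 to 14.8 FPKM, -0.57 ± 0.09 on the log2 scale (q = 2.48e-08 in the authors' deposited table), at chromosome 4, 126112256 to 126145878. Eif2c2, the slicing Argonaute, fell from 13.1 to 8.87 FPKM, -0.56 ± 0.11 on the same scale (q = 2.19e-05 in the authors' deposited table), at chromosome 15, 72932055 to 73015377. These are the lowest q-values among the 53 genes. Eif2c3 had 6.15 and 4.56 FPKM and was not called (-0.43 ± 0.21), and Eif2c4 had 2.56 and 2.41 FPKM (-0.09 ± 0.19). The order of levels, from Eif2c1 down to Eif2c4, was the same in both groups. Without the Argonautes, 10 of 49 genes were called, 7 higher and 3 lower.

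RefSeq promoter windows of build GRCm38.p6, from 250 bases before to 50 after the gene start, were found for 45 of the 53 genes and 9 of the 12 called ones. Shown are the last 100 bases before the start and the first 10 after it for 3 genes called higher and 3 called lower, since the genes of each set were called in 1 direction. Capitals mark the GC box GGGCGG, the CCAAT box and the ETS core CCGGAAG on either strand; Eif2s2 has none of them here.
Eif2s2, chr2:154892897-154893006, minus strand: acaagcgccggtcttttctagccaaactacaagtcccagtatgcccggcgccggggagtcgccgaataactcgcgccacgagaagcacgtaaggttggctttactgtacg
Eif3m, chr2:105017018-105017127, minus strand: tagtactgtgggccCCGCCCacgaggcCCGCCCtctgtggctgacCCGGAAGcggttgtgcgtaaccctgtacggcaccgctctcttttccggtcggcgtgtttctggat
Eif3j (RefSeq Eif3j1), chr2:122028480-122028589, plus strand: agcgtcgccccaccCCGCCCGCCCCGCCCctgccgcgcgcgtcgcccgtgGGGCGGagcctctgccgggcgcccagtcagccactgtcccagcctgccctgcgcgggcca
Eif4g1, chr16:20672627-20672736, plus strand: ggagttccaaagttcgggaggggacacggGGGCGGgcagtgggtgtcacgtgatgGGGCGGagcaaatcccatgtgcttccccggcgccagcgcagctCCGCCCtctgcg
Eif4ebp2, chr10:61452660-61452769, minus strand: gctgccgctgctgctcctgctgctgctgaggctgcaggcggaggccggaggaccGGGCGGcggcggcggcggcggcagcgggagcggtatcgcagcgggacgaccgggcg
Eif2c1 (RefSeq Ago1), chr4:126468622-126468731, minus strand: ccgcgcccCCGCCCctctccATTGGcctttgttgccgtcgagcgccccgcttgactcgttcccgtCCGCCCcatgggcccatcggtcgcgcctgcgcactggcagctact

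The windows of these genes were rich in G and C, with a median of 62.0% over the 45 genes against 52.7% over 27025 promoters. Those 27025 promoters were not limited to genes expressed in this tissue, so the shares below are not a comparison with expressed genes. The GC box, searched on both strands, was in 34 of the 45 windows (75.6%) and in 35.9% of all promoters. Neighbouring GC boxes can overlap, as in Eif3j. The ETS core was in 15 (33.3%) and in 9.12% of all promoters, among them Eif3m, Eif1b and Eif4ebp2. A CCAAT box was in 14 (31.1%), against 37.9% of all promoters. Among called genes with a window, the GC box was in 4 of 5 called higher and 4 of 4 called lower, the exception being Eif2s2. The full cyclic AMP response element TGACGTCA was in 0 of the 45 windows (1.88% of all promoters), and the C/EBP-ATF element TGATGNAA in 1, Eif2s3x (4.06% of all promoters). These counts describe letters in a window and say nothing of binding.

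Transcript length moved with the direction of the calls. The longest protein-coding transcript (GENCODE vM21) had a median of 1836 nt in the 7 genes called higher (range 1035 to 5413) and 5784 nt in the 5 called lower (range 3712 to 13800). The G and C content of these transcripts had medians of 42.1% and 50.7%. Length was related to the log2 ratio in the whole table as well: the rank correlation was -0.42 over the 53 genes and -0.32 over 11641 genes of at least 1 FPKM. Those 11641 are the 82.0% of the 14193 genes with a length.

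Of genes under 2000 nt in the whole table, 11.8% were called higher and 1.49% lower, and of genes over 4000 nt 4.81% were called higher and 17.2% lower. Of the 17 Eif genes under 2000 nt, 4 were called, all higher. Of the 18 over 4000 nt, 5 were called, Eif3j higher and Eif4g1, Eif4ebp2, Eif2c1 and Eif2c2 lower. The 18 genes between these lengths held the called Eif2s2 and Eif1a, both higher, and Eif4enif1, lower. By its longest annotated transcript, Eif3j therefore went against the trend of length. Which transcript of each gene was expressed here was not examined. The part of transcript length in these calls was not tested.

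**Figure D4:**
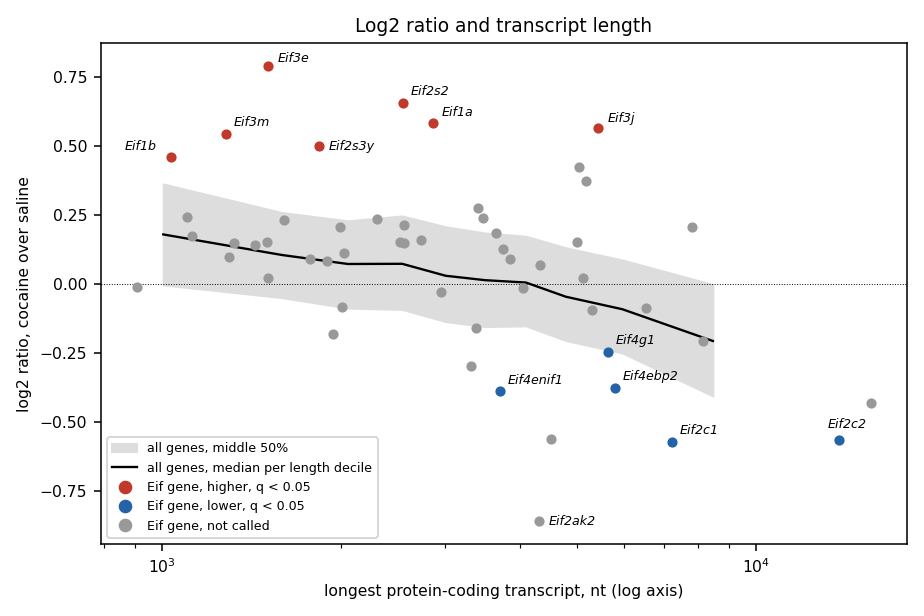
Log2 ratio of cocaine over saline against the length of the longest protein-coding transcript (log axis) for the 53 Eif genes, with the median (line) and middle 50% (grey) of all genes of at least 1 FPKM per length decile. The line falls from 0.18 in the shortest to -0.21 in the longest decile; Eif3j, at 5413 nt and a log2 ratio of 0.57, lies above the grey band.

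Genes that act with the initiation factors were read from 4 lists. Of 21 measured initiation partners 6 were called (28.6%, against 11.9% of all rows and 14.6% of genes of at least 1 FPKM), 3 in each direction, and the median log2 ratio was 0.17 (0.04 over genes of at least 1 FPKM). Mcts1, which helps reinitiation and recycling, rose from 11.8 to 22.4 FPKM (log2 0.92 ± 0.22, with q = 0.000378 in the authors' deposited table). Bzw1, an eIF5 mimic, rose from 11.6 to 17.4 FPKM, and Paip1, a partner of the poly(A)-binding protein, from 10.5 to 15.05 FPKM. The poly(A)-binding protein gene Pabpc1 fell from 212 to 179 FPKM (-0.25 ± 0.08), Larp1, which holds terminal oligopyrimidine messengers, from 20.8 to 16.8 FPKM, and Cyfip2, of the complex with the fragile X protein, from 198 to 158 FPKM. Paip2 (113 and 126 FPKM), Ddx3x (59.1 and 59.8 FPKM) and Pdcd4 (33.4 and 37.6 FPKM) were the most abundant uncalled partners.

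The kinases upstream of eIF4E-binding proteins and eIF4E and the genes around them were divided as well: 5 of 15 genes were called (33.3%, against the same 11.9% and 14.6%), 2 higher and 3 lower, with a median log2 ratio of 0.01. Rheb, the GTPase that activates mTORC1, rose from 23.3 to 30.4 FPKM and Rps6, a ribosomal protein phosphorylated downstream, from 36.3 to 51.1 FPKM. Rptor, the defining subunit of mTORC1, fell from 27.5 to 21.3 FPKM (log2 -0.37 ± 0.10, with q = 0.00468 in the authors' deposited table), and its inhibitor gene Tsc2 from 42.2 to 35.4 FPKM. Mapk3, a kinase that activates the eIF4E kinases, fell from 247 to 205 FPKM. Mtor itself (38.5 and 38.8 FPKM), Rps6kb2 (31.0 and 28.6 FPKM) and Akt1s1 (27.9 and 23.6 FPKM) were not called.

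Of 20 genes of the integrated stress response, the programme that follows phosphorylation of eIF2, 1 was called (5.0%, against 11.9% of all rows and 14.6% of genes of at least 1 FPKM), with a median log2 ratio of 0.17. That gene was Impact, an inhibitor of GCN2 activation, at 81.0 FPKM in saline and 104.6 FPKM after cocaine (q = 0.0113 in the authors' deposited table, log2 ratio 0.37 ± 0.11). The transcription factors of the list were not called. Atf4 (29.9 and 31.0 FPKM) and Ddit3 (29.9 and 31.9 FPKM) were the most abundant of them, followed by Cebpg (8.21 and 9.24 FPKM) and Atf5 (5.41 and 6.64 FPKM). The low Cebpb had 1.53 and 2.30 FPKM (log2 ratio 0.59 ± 0.24, unadjusted p = 0.0122 and q = 0.0874 in the authors' deposited table), and Atf3 was under 1 FPKM in both groups (-0.79 ± 0.88). The abundant biosynthetic genes Asns (51.3 and 61.6 FPKM), Nars (49.7 and 55.7 FPKM) and Psat1 (48.3 and 55.9 FPKM) were uncalled too. Of these, Asns was nearest to the threshold (q = 0.0733 in the authors' deposited table).

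Of 14 elongation and termination genes 5 were called (35.7%), all higher, where 6.1% of all rows and 7.46% of genes of at least 1 FPKM were called higher. Their median log2 ratio was 0.16. Eef1b2, an exchange factor of eEF1A, rose from 97.7 to 133 FPKM (log2 0.44 ± 0.10, with q = 9.54e-05 in the authors' deposited table). Dhps, the enzyme that makes the first step of hypusine on eIF5A, rose from 20.3 to 28.9 FPKM (log2 0.51 ± 0.13, with q = 0.00120 in the authors' deposited table), whereas Dohh, which completes hypusine, had 54.2 and 55.9 FPKM and was not called. The release factor genes Etf1 (14.4 to 19.3 FPKM) and Gspt2 (9.60 to 13.0 FPKM) rose. The translocase gene Eef2 (413 to 448 FPKM) was called at a log2 ratio of 0.12 with an implied error of 0.01. Eef1a1 (2500 and 2424 FPKM), Eef1a2 (376 and 427 FPKM) and Eef1g (291 and 316 FPKM) were not called. Their implied errors were 0.17, 0.20 and 0.07, so the call of Eef2 rests on an error far below those of similarly abundant genes.

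**Figure D5:**
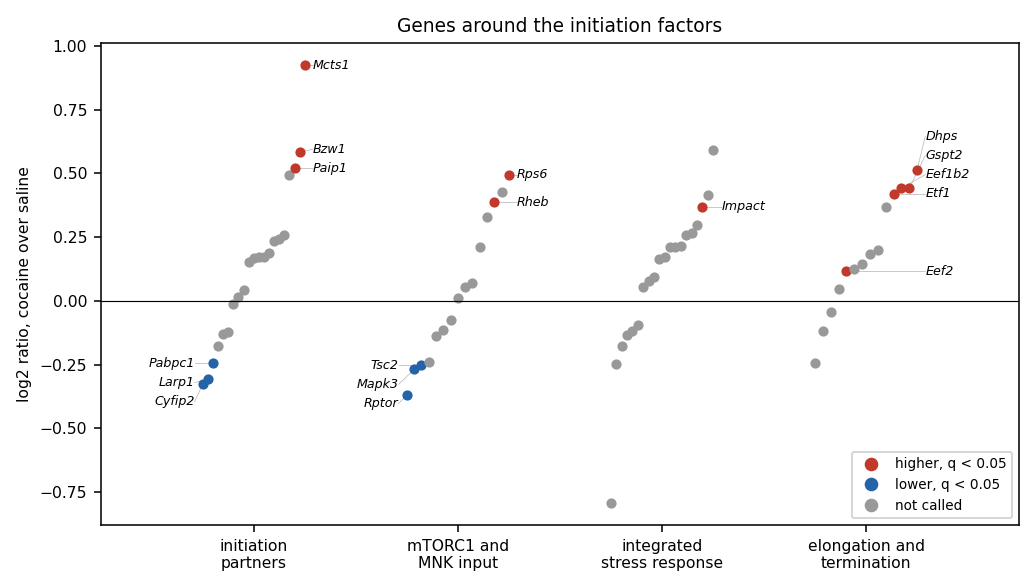
Log2 ratio of cocaine over saline for the genes of the 4 related lists, each list sorted by value, with called genes named (red higher, blue lower, grey not called). Initiation partners have 3 called genes in each direction, the mTORC1 and MNK list has 2 above and 3 below 0, the integrated stress response has 1 called gene, and the 5 called elongation and termination genes are all above 0.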

How the data were processed

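RNA of 6 pools, 3 per group, was sequenced. Per the submitters' processing notes, CASAVA, TopHat and Cuffdiff were used with builds mm9 and NCBIM37. No version or annotation is stated (not given in the sources used here). Per the file headers, 1 table compares Saline with Cocaine. Its FPKM values, 1 per gene and group, were deposited by the authors; the header prints no unit, which is taken from the Cuffdiff layout. The authors' deposited p-value and q-value, and the test statistic, treated as a score, were used as they stand; q can exceed 1. The statistic is opposite in sign to the ratio in 100% of the tested rows with unequal values, so directions come from the FPKM columns.

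Log2 ratios of cocaine over saline were computed without a pseudocount (Python 3.11.15, pandas 2.3.3). The implied standard error is the size of the log2 ratio over that of the statistic, and 95% intervals assume a normal distribution. Intervals for differences between paralogues also treat their implied errors as independent, which could not be checked. Locus positions are those of the table, written 1-based, since 21 of 21 mitochondrial genes matched the reference after adding 1 to the start. For 24 of the 53 genes the locus holds another row. Calls are those of the authors' test; no fit of values per pool could be made. The steps were tested on simulated data. Depth is unknown, so no counting intervals are given.

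Named were all called genes, the most abundant and extreme uncalled members of each role, paralogues, and of the related lists all called and the 3 most abundant uncalled genes. Transcription factors of the stress response, Eif3i and Dohh were added after their values were seen. 1 gene of the mTORC1 and MNK list is not reported here and is left out of its counts. The genes, lists and alternatives were chosen with earlier results of these data known. Promoters are 1 window per gene, the first listed by RefSeq. Older symbols were matched through RefSeq synonyms.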

Additional observations from a re-analysis of the deposited data

How the results depend on the processing

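The count of 12 called genes (7 higher, 5 lower) was the same with recomputed Benjamini-Hochberg adjustment, a mean of at least 1 FPKM or every row. It was 11 of 48 with at least 5 FPKM and 17 of 53 at q under 0.1, where 14.6% of all rows were called. At q under 0.01 it was 8 of 53, with 3 lower, and without the Argonautes 10 of 49, also with 3 lower. For rows alone in their locus it was 7 of 29, with 4 higher and 3 lower. Requiring at least 1.5-fold left 2, both higher (Eif2s2 and Eif3e), and 0 lower. Just under that limit lay Eif1a (1.496-fold) and Eif3j (1.480-fold), higher, and Eif2c1 (1.486-fold) and Eif2c2 (1.477-fold), lower. The share of all rows called was not computed for the 1.5-fold limit or for rows alone in their locus. A stricter q, an added limit or a narrower set of genes keeps fewer genes by construction. Adding the rows of Eif4a2 and Eif4g2, an alternative chosen after seeing the data, gave 13. Eif1b, Eif3j, Eif4ebp2 and Eif4enif1 lost their call at q under 0.01, and Eif1ax, Eif2ak3, Eif2b2, Eif4g3 and Eif5a2 gained one at q under 0.1. The median log2 ratio ran from 0.07 (mean in place of median) to 0.15 (rows alone in their locus). Subtracting the median of all genes (0.03) turned the sign of 2 uncalled genes, Eif3a and Eif4a3. At q under 0.01, 8.16% of all rows were called. Initiation partners then had 3 of 21 called and the mTORC1 and MNK list 4 of 15. Elongation and termination factors had 3 of 14 called and the integrated stress response 0 of 20. The integrated stress response had 3 of 20 called at q under 0.1, near the 14.6% of all rows. No paired analysis was possible because the table gives 1 value per group and none per pool; leaving out pools was not run for the same reason.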
